A study of Macaca mulatta with 6 samples.

Results

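The regions described here are 500 windows of 2000 bp on the 20 autosomes of the rhesus macaque, Macaca mulatta, in which a digest contrast was higher in sperm than in haploid embryonic stem cells (haESC). They were chosen from 24080 windows that held at least 5 CCGG sites listed in the tables of both cell types, and make up 2.08% of them. The series title calls the haESC parthenogenetic, which means that they come from an egg alone, and the sperm carry no treatment label. DNA of each cell type was cut in 3 digests (HpaII, BGT_MspI and MspI), and the HMST-Seq tags beside the cut sites were sequenced in 1 library per digest. The labels name no line, animal or passage. With 1 library per digest there was no replicate, so no value below has a replicate error, no difference was tested, and intervals cover counting error only.

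Imprinted regions carry DNA methylation on the allele of one parent, and the title of the series names such regions as its subject. As background, HpaII cuts CCGG only where the inner cytosine is unmodified, MspI also cuts methylated and hydroxymethylated sites, and a glucosyltransferase shields hydroxymethylated sites from MspI. In mammalian sperm most CpG sites are methylated, while many CpG islands at promoters are not. Some islands, those of germ-line genes among them, are known to differ between germ cells and embryonic or somatic cells.

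Each deposited table held 3 distinct columns of signal per site, called here the first, the second and the third signal. The first pair of the authors sets the first signal against the second, and the second pair sets the second against the third. No column is named for a digest, so which digest gave which signal is not stated here, and no methylation level is derived. Neither the scaling of the signals nor their read depth is known. No value was 0: the lowest first signal was 1.002 in haESC and 2.54 in sperm.

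The contrast of a site was the difference of its first and second signal over their sum, so that it lies above 0 where the first signal is higher. The windows were chosen by the difference of contrast, haESC minus sperm, less its median of 0.0250 over 1215827 shared autosomal sites. The 500 windows with the lowest mean difference are the members. First-pair values of their sites therefore describe the choice and support nothing further.

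Member windows had a mean difference of contrast from -1.35 to -0.662, with a median of -0.783 over the 500 windows. Their mean contrast was -0.224 ± 0.181 in haESC and 0.564 ± 0.151 in sperm (SD over 500 windows). In the 23580 other windows it was 0.139 ± 0.293 in haESC and 0.0765 ± 0.338 in sperm. In 442 members (88.4%) the mean contrast was below 0 in haESC and above 0 in sperm, which held for 6.42% of the other windows. In the remaining 58 members it was above 0 in both cell types, and in sperm by the wider margin. Most members thus had the second signal ahead in haESC and the first signal ahead in sperm.

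The windows at the threshold had no gap between them. The 2 members just inside had mean differences of -0.6619 on chromosome 18 from 73966001 to 73968000 and of -0.6617 on chromosome 8 from 2370001 to 2372000. The 2 windows just outside had -0.660 on chromosome 11 from 6574001 to 6576000 and -0.659 on chromosome 3 from 51202001 to 51204000. Membership is a rank within a continuous distribution.

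A high contrast in sperm alone did not make a window a member. Of 4202 windows with a sperm mean contrast of 0.5 or more, 2349 (55.9%) also reached 0.5 in haESC, and 3862 (91.9%) were above 0 there. The members were 339 (8.07%) of these windows. In 340 of the 4202 the haESC contrast was below 0, and 281 of those (82.6%) were members. Most windows high in sperm were thus high in haESC too. The members lay off that cloud because the rule chose them there, and the 82.6% follows largely from the rule.

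**Figure D1:**
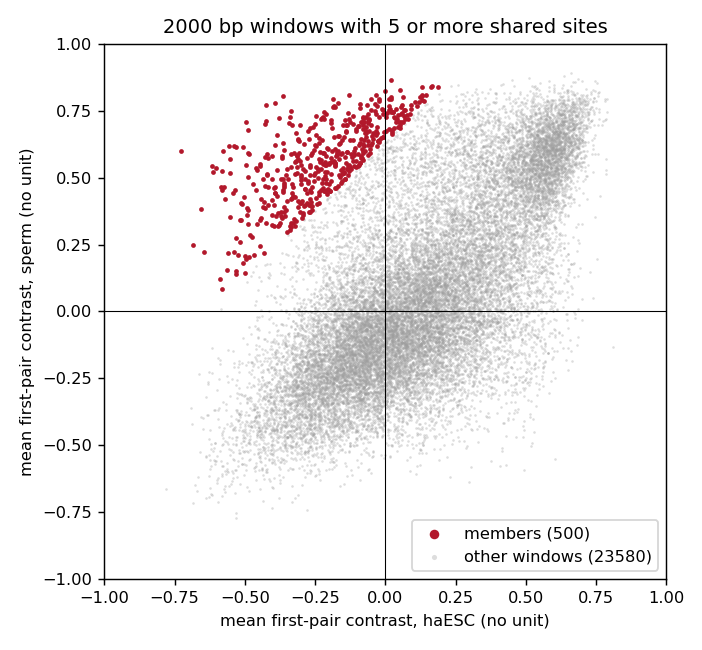
Mean first-pair contrast of each eligible 2000 bp window in haESC (horizontal axis) and sperm (vertical axis), both without unit; red points are the 500 members and grey points the 23580 other windows. The members fill the upper left edge, 442 of them left of 0 in haESC and above 0 in sperm, because the rule chose them there.

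The first and the second signal entered the rule, and their values are given as a description of the windows chosen. Over 2833 shared sites in members, the first signal had a median of 11.7 in haESC (quartiles 4.98 and 22.1) and of 116 in sperm (quartiles 82.7 and 144). Over 133757 sites of other windows the medians were 25.5 in haESC and 20.5 in sperm.

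By its medians the second signal was nearly level. Its median over member sites was 20.5 in haESC and 21.6 in sperm, against 19.4 in haESC and 18.4 in sperm in other windows. The third signal, which the rule did not use, had medians of 21.5 in haESC and 23.3 in sperm in members, and of 21.01 in haESC and 19.2 in sperm in other windows. The upper quartiles of sperm lay above those of haESC in members. They were 32.7 in haESC and 46.5 in sperm for the second signal, and 34.6 in haESC and 50.5 in sperm for the third.

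Summed per window, the first signal was lower in haESC than in sperm in 500 of 500 members, against 39.6% of other windows. The median log2 ratio of the summed first signal, haESC over sperm, was -2.86 (quartiles -3.31 and -2.42). The tables differed as a whole: the median log2 ratio over all shared sites was 0.19 for the first signal, and relative to it the median of the members was -3.06. The second signal had a median log2 ratio of -0.41 in members and -0.16 in other windows. The third had -0.50 in members and -0.12 in other windows, and was lower in haESC in 391 members (78.2%) and in 60.2% of other windows. A lower second signal in haESC was not particular to the members. In the 500 windows with the highest difference the median log2 ratio was 1.92 for the first signal, -0.44 for the second and -0.22 for the third. The summed second signal was lower in haESC in 83.8% of those windows, against 76.0% of the members.

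**Figure D2:**
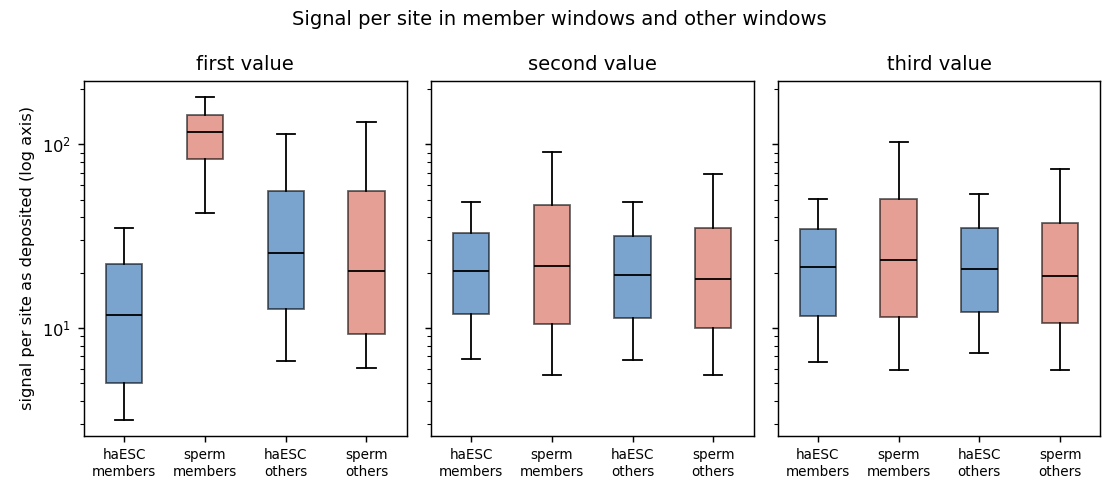
Signal per site as deposited, on a log axis, for the first, the second and the third signal in haESC (blue) and sperm (red), in members and in other windows; boxes give quartiles and the median over sites, whiskers the 10th and 90th percentile. The first signal of member sites has a median of 11.7 in haESC and 116 in sperm, while the medians of the second and the third lie between 18.4 and 23.3 in all groups.

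The window with the lowest mean difference, -1.35, lay on chromosome 4 from 159444001 to 159446000 and held 6 shared sites. In site order, its first signals in haESC were 10.8, 1.58, 1.57, 1.58, 3.15 and 4.97. In sperm, they were 186, 136, 91.7, 124, 78.4 and 246. Each sperm value lay above each haESC value, and the summed first signal was 36.5 times higher in sperm. The haESC values of 1.57 and 1.58 lay near the lowest first signal in haESC, 1.002, so this ratio rests on very low values. Its second signal averaged 24.7 per site in haESC and 42.5 in sperm.

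The next window, on chromosome 19 from 9188001 to 9190000, had first signals at 5 sites between 1.58 and 12.5 in haESC and between 90.5 and 128 in sperm. Its second signal was level, with a mean per site of 20.03 in haESC and 19.9 in sperm. The window on chromosome 5 from 6524001 to 6526000 had one site apart from the others. At position 6524982 the first signal was 36.8 in haESC and 41.6 in sperm, while the other 5 sites lay between 1.55 and 6.64 in haESC and between 94.7 and 154 in sperm. The window on chromosome 6 from 176026001 to 176028000 was the most even of the 10 lowest, with site differences from -1.35 to -1.01.

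**Figure D3:**
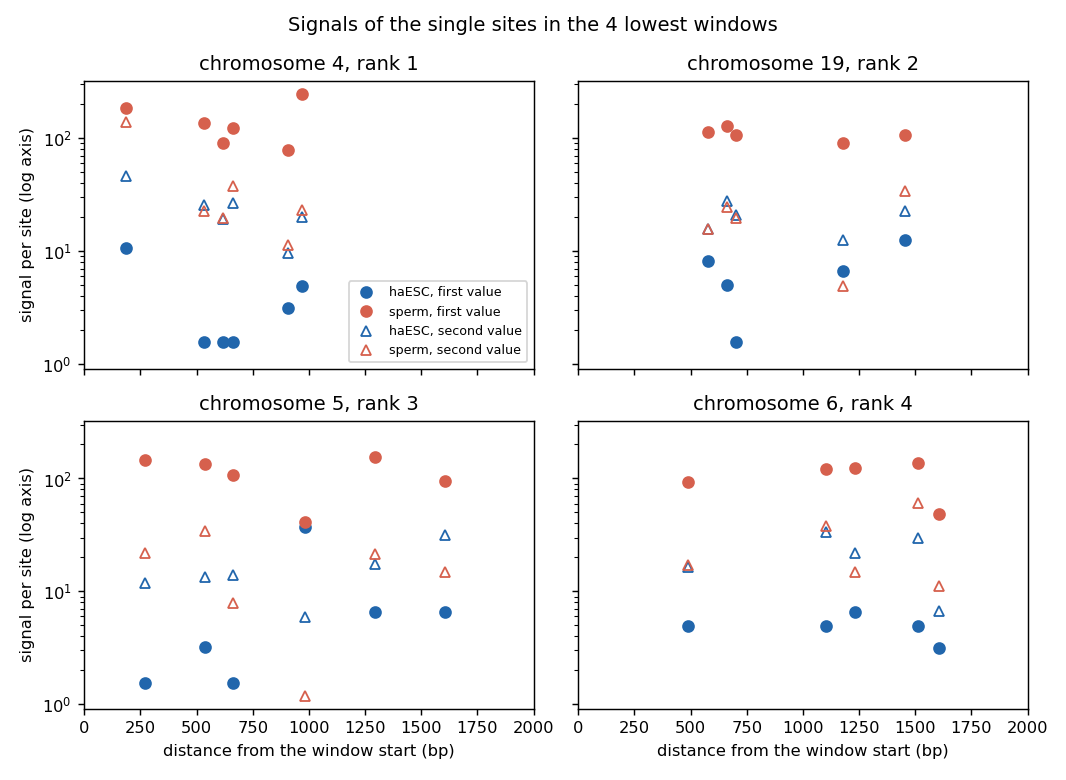
First (filled circles) and second (open triangles) signal of each shared site, on a log axis, against the distance from the window start in bp, in haESC (blue) and sperm (red), for the 4 members with the lowest mean difference. The filled red points lie above the filled blue points at each site, with the narrowest gap at the chromosome 5 site with 36.8 in haESC and 41.6 in sperm.

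The other 6 of the 10 lowest had mean differences from -1.20 to -1.18. Chromosome 19 held 2 of them, starting at 13710001 and 42868001. The others started at 148282001 on chromosome 8, at 93730001 on chromosome 12, at 195322001 on chromosome 3 and at 640001 on chromosome 16. Across these 6 the first signal per site averaged between 4.89 and 15.2 in haESC and between 72.5 and 137 in sperm. The first signal was between 9.04 and 17.1 times higher in sperm, ratios that also rest on low haESC values. The chromosome 3 window held one site with a difference of 0.0331.

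Members with many sites showed the same arrangement. The member with the most sites, 12, lay on chromosome 13 from 6808001 to 6810000. Its mean difference was -0.669, and its first signal averaged 21.3 per site in haESC and 163 in sperm. Each of its 12 sites had a difference of -0.279 or lower. Windows of 10 sites started at 51306001 on chromosome 3, at 1610001 on chromosome 13 and at 56200001 on chromosome 15, and one of 9 sites at 78742001 on chromosome 17. The chromosome 15 window had a mean contrast of -0.469 in haESC and 0.212 in sperm, the lowest sperm value of the 5, and a second signal averaging 43.2 in haESC and 132 in sperm. The second signal was higher in sperm in each of these 5 windows.

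In 5 members, of 5 sites each, even the highest site difference lay between -1.01 and -0.859. Beside the chromosome 6 window these started at 34790001 on chromosome 17, at 134050001 on chromosome 3, at 70850001 on chromosome 10 and at 133688001 on chromosome 11. Their first signal averaged between 4.95 and 17.1 per site in haESC and between 105 and 145 in sperm.

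Another 3 members were named for signal, as those with the highest summed first-pair signal in whichever cell type had the lower sum, a ranking that favours windows with signal in haESC. On chromosome 16 from 638001 to 640000 the first signal averaged 92.3 in haESC and 148 in sperm, 1.60 times higher in sperm. The haESC average rests largely on position 639536, with 490 in haESC, 163 in sperm and a difference of 0.209. Its other sites lay between 3.27 and 31.9 in haESC and between 87.8 and 258 in sperm. On chromosome 14 from 7148001 to 7150000 it averaged 60.03 in haESC and 156 in sperm, 2.60 times higher in sperm. The remaining one was the 12-site window on chromosome 13.

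Sites within a member mostly pointed one way. The difference was below 0 at 2752 of 2833 member sites (97.1%), against 46.6% in other windows. All sites were below 0 in 421 members (84.2%), against 5.20% of other windows. A site above 0.3 was found in 14 members and in 67.5% of other windows. These shares follow in large part from the choice of a low mean.

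Sites that took no part in the choice were read separately. In 10128 windows with 6 or more shared sites, 500 windows were taken on every other site, and the sites between were read. The median difference at the 1573 sites between was -0.554 (quartiles -0.919 and -0.225), against 0.0430 at 30427 such sites of the windows not taken. It was below 0 at 87.3% of sites in the windows taken (95% Wilson interval 85.5% to 88.8%) and at 45.0% in the rest. The first signal at these sites had medians of 15.97 in haESC and 99.7 in sperm, against 25.6 in haESC and 20.3 in sperm in the rest. The choosing sites of the same windows had a median difference of -0.674, so the sites between lay closer to 0. With 210 windows taken, the same share as in the rule, the sites between had a median difference of -0.741. The same 6 libraries gave both kinds of site.

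Sites listed in one table alone did not enter the rule either. In member windows 85 sites were listed in sperm alone, 2.91% of the sperm sites there, against 1.37% in other windows. Their contrast in sperm had a median of 0.586 (quartiles 0.363 and 0.784), against -0.0366 at such sites in other windows. In the other direction, 32 sites were listed in haESC alone, 1.12% of the haESC sites in members and 2.86% in other windows. Their contrast in haESC had a median of -0.0461 (quartiles -0.472 and 0.369) in members and of -0.206 (quartiles -0.583 and 0.244) in other windows. What puts a site on a list is not known here. The sperm-alone sites passed the listing in sperm only, in windows chosen for high sperm contrast, so their contrast supports nothing further. Likewise, the haESC-alone sites passed the listing in haESC only, and those in members were few with a wide spread, so nothing is read from them.

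The authors' p-values were read next. A site counts as called where its adjusted p lies below 0.05 in the authors' deposited table, whose test is not known here. For the first pair in haESC the authors' deposited table called 1985 of 2833 member sites (70.1%), with 67.6% of all shared autosomal sites called. For the first pair in sperm the authors' deposited table called 2703 member sites (95.4%), with 70.1% of all shared autosomal sites called. The rule used this contrast, so nothing is read from these shares.

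The direction of the calls followed the rule. In haESC the authors' deposited table called 1523 member sites (53.8%) with the second signal higher, with 31.8% of all shared sites so called. In sperm the authors' deposited table called 2612 member sites (92.2%) with the first signal higher, with 34.7% of all shared sites so called. Calls in these opposite directions at the same site were made in the authors' deposited tables at 1364 member sites (48.1%), with 4.19% of all shared sites so called. In the lowest window the authors' deposited tables held 6 calls of 6 sites in each cell type, with adjusted p-values up to 0.0083 in haESC and up to 0.00019 in sperm.

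The second pair is another contrast, which shares the second signal with the first. In haESC the authors' deposited table called 305 of 2833 member sites (10.8%, 95% Wilson interval 9.68% to 12.0%), with 11.5% of all shared autosomal sites called. In other windows the authors' deposited table of haESC called 14.1%. In sperm the authors' deposited table called 460 member sites (16.2%, interval 14.9% to 17.6%), with 7.99% of all shared autosomal sites called, and 11.2% in other windows. The haESC share of the members was near that of all shared sites, which lay inside its interval, and is not read as a result about the members. The sperm share lay above both. The rule used the second signal, so the second pair is not independent of the choice.

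Signal moved with these shares. The sum of the second and the third signal of a site had a median of 42.4 in haESC members and 40.8 in other windows, and of 45.0 in sperm members and 37.7 in other windows. Within 4 classes of that sum, split at 20, 40 and 80, the shares called in the authors' deposited table of haESC were 2.95%, 7.31%, 11.7% and 22.9% in members. In other windows the authors' deposited table of haESC gave 4.66%, 9.63%, 16.4% and 27.4%, and over all shared sites 4.10%, 8.16%, 13.7% and 24.5%. In sperm the shares in the authors' deposited table were 1.48%, 5.33%, 15% and 36.0% in members. In other windows the authors' deposited table of sperm gave 1.74%, 3.91%, 10.1% and 32.3%, and over all shared sites 1.19%, 2.95%, 7.83% and 28.4%. The sperm shares of the members were above both in each class but the lowest, where they lay between them. The highest class has no upper bound. In sperm the 90th percentile of the sum was 189 in members, 142 in other windows and 114 over all shared sites. The highest class therefore does not match members to the others by signal. The third signal was above the second at 65.6% of member calls in the authors' deposited table of haESC, at 75.3% of calls in other windows and at 56.8% of calls over all shared sites. For sperm, it was above at 70.9% of member calls, at 70.1% of calls in other windows and at 50.8% of calls over all shared sites in the authors' deposited table.

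Sites in members lay closer together. The distance between neighbouring shared sites had a median of 199 bp (quartiles 104 and 351) in members and of 245 bp (quartiles 129 and 422) in other windows. Distances under 200 bp made up 50.1% in members and 40.4% in other windows. The stretch from the first to the last shared site of a window had a median of 1216 bp in members and 1469 bp in other windows. The number of sites did not set members apart: 287 members (57.4%) held 5 sites, against 58.0% of other windows, and 136 (27.2%) held 6, against 25.7%. For comparison, the 500 windows at the opposite end of the ranking, with the highest difference, had a median distance of 213 bp. In those windows 46.4% of distances were under 200 bp, and the stretch had a median of 1324.5 bp. Closer sites than in other windows were thus not particular to the members. The choice used the contrast and not the spacing, but whether it favours close sites indirectly was not tested.

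Beyond the window edges the difference faded within 1 to 2 kb. Shared sites within 0.25 kb of a member, outside it, had a median difference of -0.442 and were below 0 at 84.4% of 276 sites. From 0.25 to 0.5 kb the median was -0.315, from 0.5 to 0.75 kb -0.131, and from 0.75 to 1 kb -0.115. From 1 to 2 kb it was -0.0638, and from 2 to 5 kb -0.0107 with 51.0% of 2263 sites below 0. These sites took no part in the choice of the nearest member, but sites inside any other member were left out. Of 1000 neighbouring window positions, 89 held an eligible window, and 22 of these were members and so not read. Flank sites in eligible windows were kept only where their window missed the threshold. The fade is thus set in part by the choice, and the extent of the contrast is not measured by it.

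The flanks followed the first signal of sperm. Within 0.25 kb its median was 18.4 in haESC and 95.7 in sperm. From 1 to 1.5 kb it was 19.3 in haESC and 17.6 in sperm, close to the medians of 20.9 in haESC and 17.5 in sperm from 10 to 50 kb. The second signal within 0.25 kb was 18.3 in haESC and 18.4 in sperm. The first signal of haESC in the flanks was thus near the level of the surroundings within 0.25 kb, while that of sperm came down over about 1 kb. Signals inside the windows entered the choice, so a step at the window edge is set in part by it. Around the 500 highest windows the median difference dropped to 0.200 within 0.25 kb and was still 0.0779 from 2 to 5 kb and 0.0482 from 10 to 50 kb. The members had the larger difference beside the window and the smaller one at a distance.

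**Figure D4:**
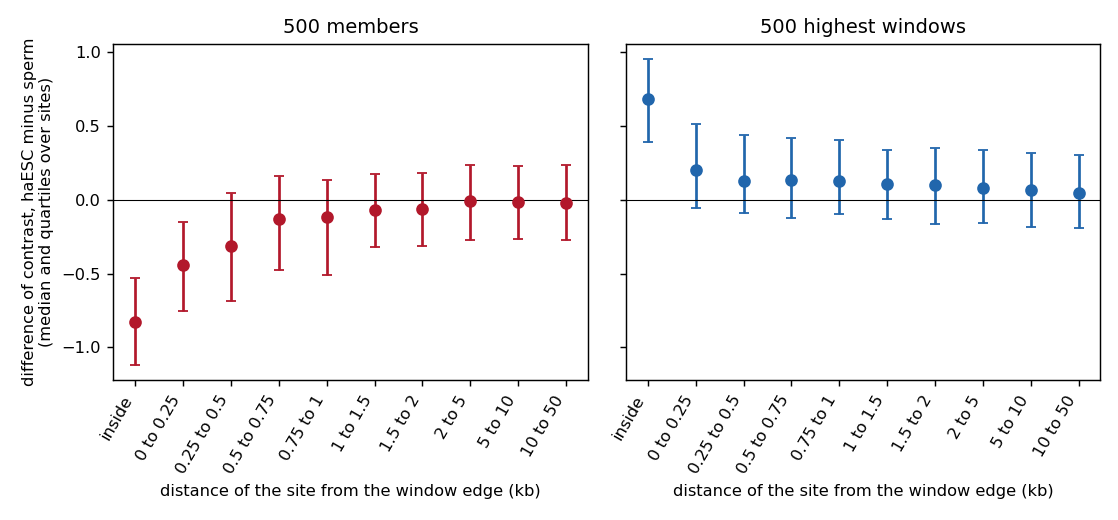
Difference of first-pair contrast, haESC minus sperm, of shared sites inside the windows and by distance from the window edge in kb, for the members (left) and the 500 highest windows (right); points are medians and bars quartiles over sites. In the members the median is -0.830 inside, -0.442 within 0.25 kb and -0.0107 from 2 to 5 kb.

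Members adjoined in 11 pairs, which took in 22 of the 500 windows, and none of the runs was longer than 2 windows. Few neighbours could be members, since 3.54% of the windows with a shared site were eligible. Counted from each member to both sides, 89 neighbouring positions held an eligible window, and 22 of these (24.7%) were members, against 2.08% of all eligible windows. The pair with the most sites, 15, spanned 29300001 to 29304000 on chromosome 20. Pairs of 13 sites started at 638001 on chromosome 16, at 30236001 on chromosome 20, at 115596001 on chromosome 4 and at 13432001 on chromosome 14. The chromosome 16 pair had the lowest mean difference of the 11, -1.02. Another member lay within 10 kb of 32 members and within 1 Mb of 227. Counts of this kind for other windows are not given here, so these 2 counts are not read as clustering. Of 67 eligible windows that adjoined a member without being one, 47 (70.1%) had a mean difference below 0, with a median of -0.139, against 43.3% of other windows and a median of 0.0349.

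The members were spread over every autosome but not evenly. They made up 5.30% of eligible windows on chromosome 18 (95% Wilson interval 3.53% to 7.90%), 5.07% on chromosome 4 (3.74% to 6.83%) and 4.51% on chromosome 5 (3.02% to 6.68%). The lowest share was 0.767% on chromosome 10 (0.472% to 1.24%), followed by 1.06% on chromosome 16. By number, chromosome 19 led with 55 members, followed by chromosome 3 with 50 and chromosome 4 with 40. Chromosome 19 also had the lowest median difference over all its shared sites, -0.0721. The lowest window of each chromosome had a mean difference between -1.35 and -0.906, so each autosome held at least one window in the lower tail.

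Members also lay farther from the chromosome ends. Their distance to the nearer end of the listed sites had a median of 17.7 Mb (quartiles 4.43 and 43.3), against 9.46 Mb (quartiles 2.81 and 31.5) in other windows. Within 5 Mb of an end lay 26.2% of members (95% Wilson interval 22.5% to 30.2%), 36.9% of other windows and 34.2% of the 500 highest windows.

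**Figure D5:**
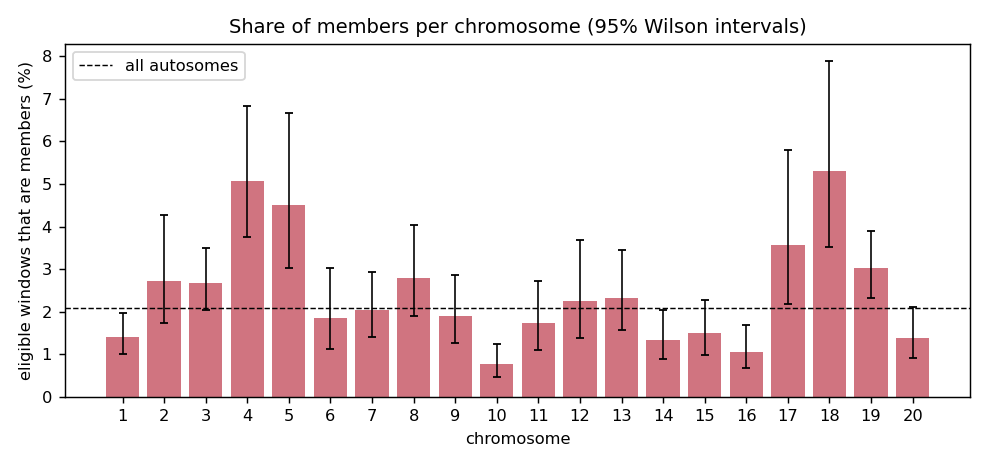
Percent of eligible windows that are members on each autosome (bars, axis from 0), with 95% Wilson intervals for counting error, and the share over all autosomes, 2.08%, as a dashed line. The intervals of chromosomes 4, 5, 17, 18 and 19 lie above the line and those of chromosomes 1, 10, 14 and 16 below it.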

How the data were processed

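HMST-Seq libraries of macaque haESC and sperm were sequenced on a HiSeq2000 as single-end reads, per the labels' protocols. The authors deposited 1 table per cell type, with no header. Columns were read from their values as chromosome, position and 2 pairs of signal values, each with the authors' deposited p-value and its adjusted form. How the authors counted and scaled the deposited signal is not given in these sources, so read depth and the precision it gives are unknown. The seventh column repeats the fourth in each of the 1366982 haESC and 1297392 sperm rows. This 1 column per table was not used, which leaves 3 distinct signals, as many as the libraries whose labels name the table. The deposited adjusted p-value of the second pair exceeds 1 in places and was handled as a score against the same threshold of 0.05.

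The submitters' processing notes name hg19, while the tables name macaque chromosomes. No genome or annotation was used here, positions are as deposited, and no gene or sequence is given. The planned list of imprinted genes was not measured.

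Shared sites, contrasts and 2000 bp windows were computed with Python 3.11.15, pandas 2.3.3 and NumPy 2.4.6, and Wilson intervals with SciPy 1.17.1. The window search was tested on simulated data, where it recovered most but not all of the planted windows. The rule took the 500 lowest windows, and ties went by chromosome and start. Windows named are the 10 lowest, the 5 with most sites, the 5 with the lowest highest site difference, the 3 with the highest summed first-pair signal in the cell type with the lower sum, the 5 longest runs, and 2 on either side of the threshold. The members, lists and settings were chosen with earlier results of these data known. The contrast level of 0.5, the site difference of 0.3, the distance of 200 bp, the signal classes, the 0.25 kb flank classes, the 5 Mb from an end, the 500 highest windows, the 210 windows and the X windows were chosen after these data were seen. Sites read apart from the choice were every other site of windows with 6 or more. Libraries could not be left out in turn, since each pair needs both of its libraries.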

Additional observations from a re-analysis of the deposited data

Results flagged for a closer look

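The rule covered the autosomes alone, and the X chromosome was read with the same windows and the same median taken off. On X, 34 of 331 eligible windows (10.3%, 95% Wilson interval 7.44% to 14.0%) had a mean difference at or below that of the last member, against 2.08% of autosomal windows. The lowest lay on X from 10672001 to 10674000, with 5 sites, a mean contrast of -0.616 in haESC and 0.758 in sperm, and a mean difference of -1.40, below that of each member. These windows are singled out because they hold a signal in data outside the comparison. The median and the upper tail of the X windows are not given here, so the share does not describe the rest of that chromosome. With 1 library per digest the difference between X and autosomes was not tested.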

How the results depend on the processing

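No paired analysis was possible because no test was run and each digest had 1 library. The members depend on where window borders fall. Of the 500 members, the share overlapping the windows chosen was 41.6% with windows shifted by 1000 bp and 28.8% with windows of 1000 bp. It was 6% with at least 8 shared sites, where 1460 windows were eligible. That figure is capped by construction, since members with fewer than 8 sites could not be taken. Of the members, 23 held 8 sites, 3 held 9, 3 held 10 and 1 held 12, and 30 were chosen again. The share was 80.6% with a summed first-pair signal of at least 10 and 97.6% with 1 added to each value. By the median of sites it was 77.6%, by summed signals 70.8%, and with 250 members 50.0% (by construction). Chosen on every other site it was 41.8%. At least 6 sites were needed there, so the 287 members with 5 sites could not be taken. With no median taken off the share was 100%.

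Shares of sites below 0 were 94.1% by summed signals, 69.7% with at least 8 sites and 87.3% at sites between (93.1% with 210 windows, a setting chosen after seeing the data). Second-pair calls in the authors' deposited table of haESC were 12.3% with a signal of at least 10, 14.7% with at least 8 sites and 12.7% at sites between. In the authors' deposited table of sperm they were 14.2% by summed signals and 14.7% at sites between. Distances under 200 bp made up 55.6% with at least 8 sites and 47.5% by summed signals, and sites beside the windows were below 0 at 58.0% with at least 8 sites. Of 44 values recomputed, 15 stayed within the counting interval and 29 moved beyond it. The direction of many of these moves was set by design. Shares of members chosen again start from 100% and can only stay there or fall. Shares called at the stricter adjusted p thresholds given below can likewise only stay level or fall. The 29 are therefore no measure of how stable the results are. With at least 8 shared sites, 500 windows were taken from 1460 eligible ones, against 500 from 24080 in the main setting. That setting thus took a far larger part of its ranking, up to higher differences. Requiring 8 sites in 2000 bp also favours close sites. Its shares of 69.7%, 58.0% and 55.6% therefore do not show that site-rich windows behave differently. For the other values that moved, the cause was not tested.

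At adjusted p below 0.01 and 0.001, the authors' deposited tables called 57.6% and 46.3% of member sites for the first pair in haESC and 92.3% and 89.2% in sperm, against 53.8% and 42.3% of all shared sites in haESC and 58.2% and 48.6% in sperm. For the second pair they called 3.71% and 1.31% in haESC and 9.14% and 4.66% in sperm, against 4.10% and 1.40% of all shared sites in haESC and 3.48% and 1.61% in sperm. The unknown depth limits how far single sites can be read.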
